A study of Homo sapiens with 4 samples.

Results

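The central domain of 18S rRNA was taken as the 530 positions from nt 671 to 1200 of 18S, which lie at positions 4325 to 4854 of the 45S precursor. Members were chosen by position alone. They are 530 of the 15984 rRNA positions listed and 28.4% of the 1869 nt of 18S. The cells were HEK293T, derived from human embryonic kidney and carrying the SV40 large T antigen, with stable expression of Flag-SIRT7, at passages 10 to 15. From the cytosolic and the nuclear fraction, the tagged protein was pulled down with an anti-Flag resin. Co-purified RNA was then sequenced, giving 2 libraries per fraction. All 4 libraries carry Flag-SIRT7, and neither input RNA nor a mock capture was analysed here, so the values describe recovered RNA and not enrichment. The labels name neither the promoter of the transgene nor the number of clones, and they do not say that the 2 libraries of a fraction came from separate cultures. The p-values are therefore relative to the spread of these libraries, and that spread may be technical. The table covers rRNA positions only, so the level of SIRT7, markers of the cell line and protein markers of the fractions were not checked.

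SIRT7 is an NAD-dependent deacylase of the sirtuin family that is found mainly in the nucleolus, where rRNA is transcribed and ribosomal subunits are assembled. The central domain of 18S folds into the platform of the small subunit. Its conserved helices 23 and 24 carry loops that face the large subunit, and helix 27 packs close to the decoding centre. Eukaryotes add ES6S, the longest expansion segment of 18S, which extends from helix 21 over the solvent side of the subunit.

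The domain was divided where the conserved stretch of helix 22 begins, at nt 921. The side ahead of that point, nt 671 to 920 (250 nt), holds ES6S by its textbook position, which was not aligned here. The core side, nt 921 to 1200 (280 nt), holds helices 22 to 27. Sequences are given in DNA letters, 5′ to 3′ on the sense strand, as the file lists them for the precursor, RNA45SN5 in RefSeq's gene table. The first opens the domain, and the next holds the stretch in which the fractions differed most, with the windows that fell in the nucleus in capitals (nt 761 to 840). In the others, capitals mark the 7-letter anchor by which each conserved element was found, the first match on the sense strand within the domain.
Nt 671 to 760: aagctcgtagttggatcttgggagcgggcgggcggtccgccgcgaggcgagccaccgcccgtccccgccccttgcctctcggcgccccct
Nt 741 to 860: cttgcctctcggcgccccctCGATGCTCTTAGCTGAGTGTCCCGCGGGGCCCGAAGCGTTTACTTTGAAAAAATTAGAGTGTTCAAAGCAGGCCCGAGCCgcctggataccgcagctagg
Helix 23 loop, nt 946 to 976: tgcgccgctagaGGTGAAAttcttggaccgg
Helix 24 loop, nt 1046 to 1076: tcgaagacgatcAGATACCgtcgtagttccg
Helix 27 and the stretch after it, nt 1156 to 1200: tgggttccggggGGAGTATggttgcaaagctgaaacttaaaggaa

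Depth is the number of reads that cover a position. The domain was deeply covered, at 485098 and 488320 reads per position on average in cytosolic libraries, against 641183 and 598997 in nuclear libraries. The thinnest position still had 118025 reads. Since 1 read counts at every base it covers, neighbouring depths are not independent. Values below are relative depths, that is, depth over the mean depth of the same library at all listed positions. Such values give shares of rRNA reads, and no amount of RNA follows from them.

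As a whole, the domain took a larger share of the nuclear than of the cytosolic rRNA reads, but not a larger share of the 18S reads. Mean relative depth over its 530 positions was 2.34 and 2.47 for cytosol, against 3.03 and 3.17 for nucleus. Both nuclear libraries lay above both cytosolic ones. The rise was 1.29-fold (95% interval 1.05 to 1.59), with a log2 difference of 0.37 (SE 0.11) and an adjusted p of 0.0473 in limma over 12 parts of the listed sequences, of which 7 passed, or 58.3%. This call ended without any 1 of the 4 libraries, at adjusted p-values of 0.0621 to 0.102 in limma. It also ended with the replicate number as a block (adjusted p = 0.0545 in limma) and under median-of-ratios scaling. There the difference was 0.020 with factors from the 12 parts, and 0.15 with factors from the 10-nt windows, an alternative added after the data were seen. The parts of 18S before and after the domain differed by 0.31 and 0.44 on the same scale. Within 18S, the domain held 30.7% and 29.8% of cytosolic depth and 29.8% and 30.4% of nuclear depth. Those values overlap, and the difference of -0.12 percentage points had an exact permutation p of 1. The sign of that small difference turned without cytosolic replicate 1 (0.33) or nuclear replicate 1 (0.18).

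The near-equal share within 18S covered unlike values inside the domain. The core side had a mean relative depth of 2.84 and 2.98 in the cytosol against 4.01 and 4.30 in the nucleus, which is 1.43-fold. The side with ES6S had 1.77 and 1.90 against 1.93 and 1.90, so its nuclear libraries stood just above the higher cytosolic one. The ratio of the ES6S side to the core side was 0.624 and 0.636 in cytosolic libraries but 0.480 and 0.441 in nuclear libraries. Every nuclear ratio was below every cytosolic ratio, with log2 means of -0.67 ± 0.02 and -1.12 ± 0.09 (SD, n = 2, exact permutation p = 0.333, the smallest that 2 libraries against 2 allow). This ratio involves no scaling between libraries. The difference of -0.45 ranged from -0.51 to -0.39 when 1 library was left out, and it was -0.10 when nt 761 to 840 were left out, a choice made after the values were seen. Set against the rest of 18S, the ES6S side had log2 ratios of -0.26 ± 0.03 and -0.57 ± 0.03, and the core side 0.41 ± 0.05 and 0.55 ± 0.05 (cytosol, then nucleus, SD, n = 2).

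**Figure D1:**
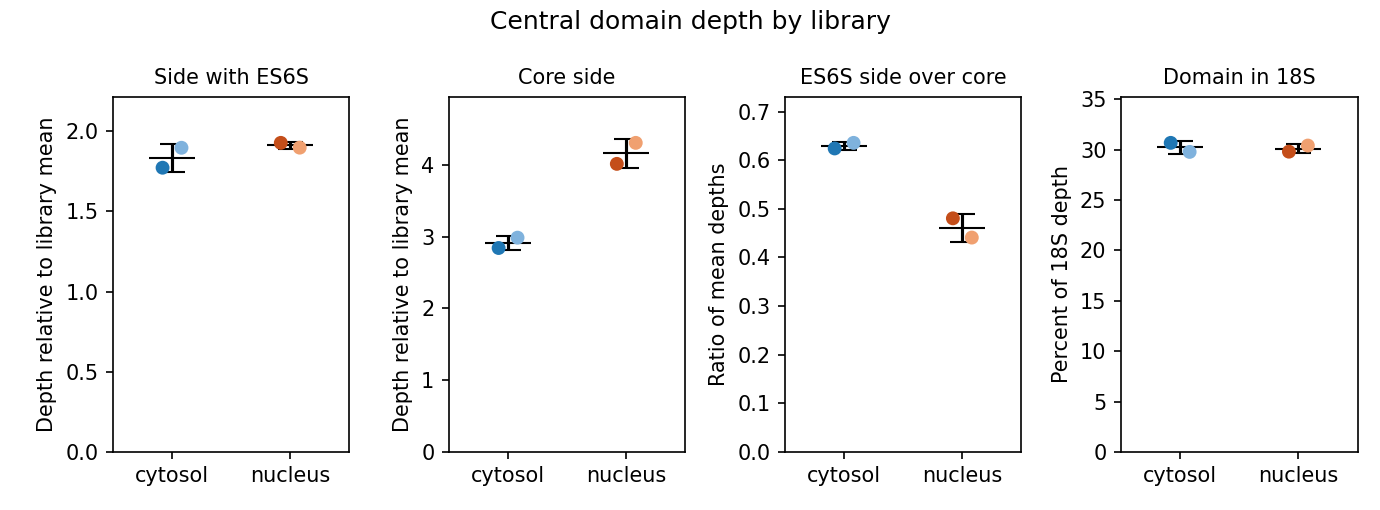
Relative depth of each side of the domain (read depth over the library mean), the ratio of their mean depths, and the domain's percent of 18S depth. Points are libraries, bars are the mean ± SD of 2 libraries, and every axis starts at 0. The core side separates the fractions (2.84 and 2.98 against 4.01 and 4.30), the ratio is lower in both nuclear libraries, and the share of 18S overlaps.

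To see where along the domain the fractions differed, all listed sequences were divided into windows of 10 nt, and 1316 windows with enough depth were fitted together in limma on log2(relative depth + 0.01). All 53 windows of the domain passed the filter on low depth. Of them 40 were higher in the nucleus, 8 were lower and 5 did not pass. Over all windows tested, 37.1% were higher and 18.1% lower. In the parts of 18S before and after the domain, 37 of 67 and 39 of 66 windows were higher, and 10 and 2 were lower. The median log2 difference was 0.47 in the domain, against 0.32 and 0.43 in the parts of 18S before and after it. It was -0.21 in 28S and 0.01 over all windows tested, so a rise of this kind was shared by the rest of 18S. Since neighbouring windows share reads, a run of called windows is not a set of separate observations.

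**Figure D2:**
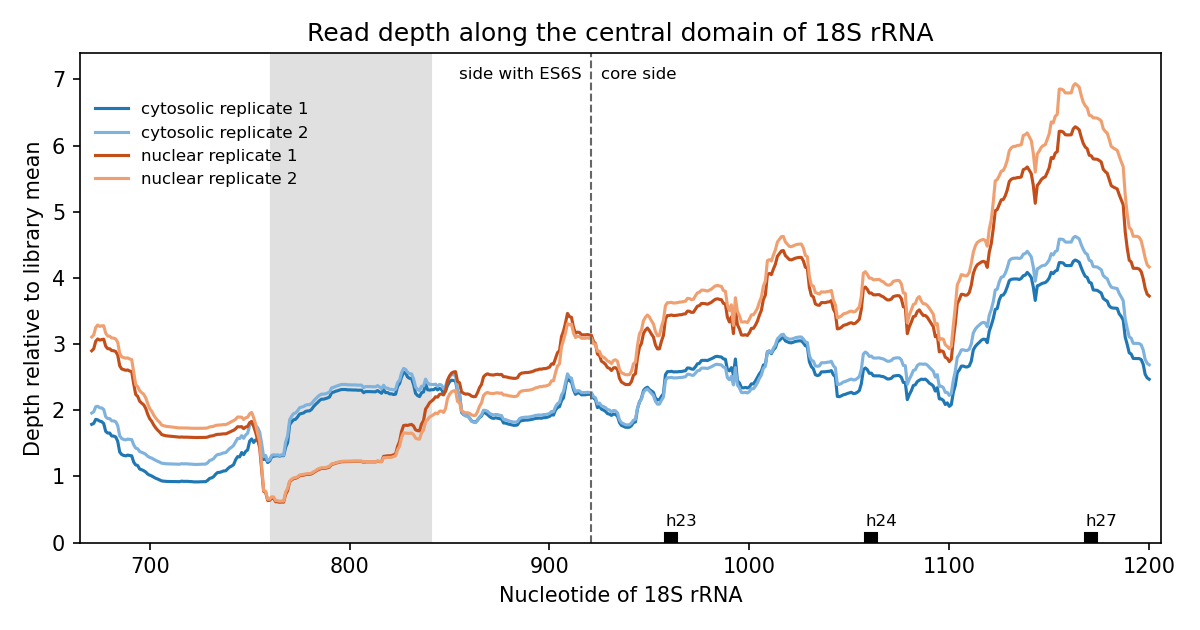
Read depth relative to the library mean at each nucleotide of the domain, one line per library. Grey marks the run of windows that were lower in the nucleus (nt 761 to 840), the dashed line is the start of helix 22 (nt 921), and black marks are the anchors of helices 23, 24 and 27. The nuclear lines lie below the cytosolic ones throughout the grey stretch, and the fraction means cross just outside it, at nt 753 to 754 and nt 853 to 854.

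The calls formed 5 runs along the molecule. From the 5′ end, 7 windows were higher (nt 671 to 740), 2 did not pass (nt 741 to 760), 8 were lower (nt 761 to 840), 3 did not pass (nt 841 to 870), and the remaining 33 were higher (nt 871 to 1200). The sign of the difference changed at 2 places only among the 530 positions, between nt 753 and 754 and between nt 853 and 854. Both nuclear libraries lay below both cytosolic ones at 93 positions and above both at 426, with overlap at the other 11. The same counts were not made over all listed positions, so they do not set the domain apart.

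The opening run lies on the side with ES6S, and its G+C content was 75.7%. Averaged over nt 671 to 740, relative depth was 1.17 and 1.42 in cytosolic and 2.06 and 2.21 in nuclear libraries, a 1.64-fold difference. The 5 largest rises of the domain were its first 5 windows. The largest, nt 681 to 690, went from 1.43 and 1.67 to 2.72 and 2.91, with a log2 difference of 0.86 (SE 0.10) and an adjusted p of 0.00406 in limma. The next, nt 691 to 700, had 0.83, then nt 671 to 680 had 0.72, nt 701 to 710 had 0.70 and nt 711 to 720 had 0.66. At single-nucleotide scale the highest nuclear-over-cytosolic ratio was 1.88, at nt 688.

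Within this run lay the lowest cytosolic depth of the domain. The 3 lowest cytosolic windows followed each other from nt 701 to 730, and each held 80% to 90% G+C. Window nt 711 to 720 had 0.924 and 1.19 in cytosolic against 1.60 and 1.74 in nuclear libraries. Both cytosolic libraries reached their minimum at nt 723, at 0.917 and 1.18 times their means. The cytosolic libraries were also least alike here, and replicate 2 exceeded replicate 1 by up to 0.36 on the log2 scale (nt 721 to 730). Calls at nt 711 to 720 and nt 721 to 730 were lost with a pseudocount of 0.1 (adjusted p = 0.05002 and 0.0517 in limma) and, together with nt 701 to 710, without a variance trend (0.0583 to 0.0677).

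The lower run, nt 761 to 840, is the stretch in capitals in the printed sequence, on the side with ES6S. Over its 80 nt, the cytosolic libraries had relative depths of 2.13 and 2.203 and the nuclear ones of 1.24 and 1.21, which is 1.77-fold lower. The spread within a fraction was 0.05 and 0.02 (SD, n = 2). Since the run was delimited by calls on these same values, the gap between fractions is a description only. Windows of the run had log2 differences of -1.01 to -0.41. The 5 largest falls of the domain were consecutive, from nt 761 to 810. Falls were named only where the fractions did not overlap, so the lack of overlap there follows from the rule.

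Window nt 761 to 770 had the largest fall and the lowest nuclear depth of the domain. Cytosolic relative depths were 1.39 and 1.42 there and nuclear ones 0.684 and 0.704, a 2.03-fold fall. The log2 difference was -1.01 (SE 0.07) with an adjusted p of 9.14e-04 in limma. It stayed between -1.36 and -0.81 in every alternative run, all past the threshold. Of the 186 windows of 18S it had the sixth lowest difference, and of the 1316 windows of the whole table it ranked 41 from the lowest.

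The other named falls formed a plateau. Window nt 771 to 780 had 1.93 and 2.02 in the cytosol against 1.0004 and 1.01 in the nucleus, and nt 781 to 790, all G and C, had 2.13 and 2.21 against 1.10 and 1.11. At nt 791 to 800 the values were 2.30 and 2.37 against 1.21 and 1.22. At nt 801 to 810, an A+T-rich window with 20% G+C, they were 2.29 and 2.37 against 1.22 and 1.23. The cytosolic libraries were therefore 1.90 to 1.96 times as deep throughout these 40 nt, over windows of 20% to 100% G+C. Log2 differences ran from -0.97 to -0.92 with adjusted p-values of 5.4e-04 to 6.87e-04 in limma.

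**Figure D3:**
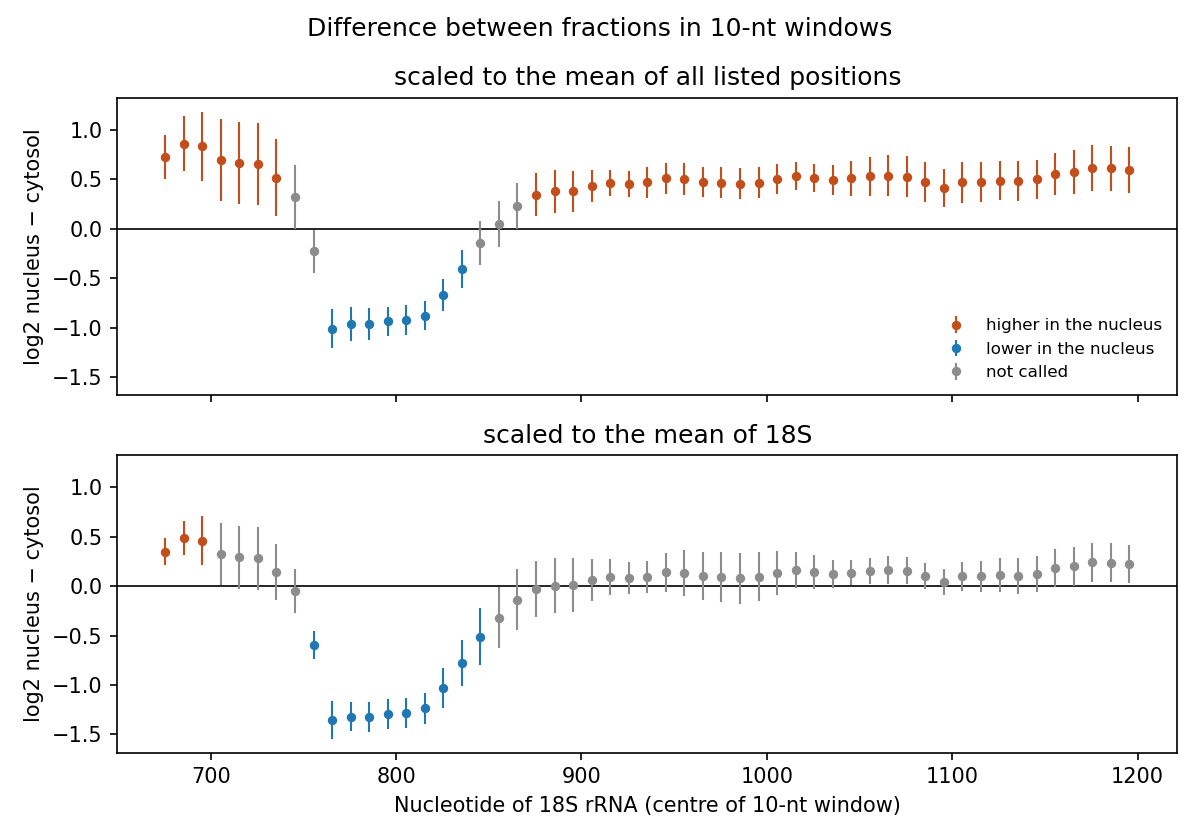
Log2 difference of relative depth (nucleus minus cytosol) in the 53 windows of the domain, with 95% intervals of the limma fit, scaled to the mean of all listed positions (top) and to the mean of 18S (bottom). Orange windows were higher, blue windows lower and grey windows not called. The fall from nt 761 to 840 is present in both panels, while most of the rises are called only in the top one.

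The edges of the lower run were examined as steps between adjacent windows, a measure that no scaling between libraries can move apart from the pseudocount. Of the 52 steps inside the domain, 20 differed between the fractions, 12 rising more and 8 falling more in the nucleus, against 36.4% that differed over all 1312 steps tested. A share so near the background does not set the domain apart. Within the domain, the largest steps lay at the 2 edges of the lower run. That run was delimited by calls on the same window values, so the place of these steps is a description only. Over all 1312 steps, the largest fall of the domain, into nt 761 to 770, ranked 10 from the lowest. Its largest rise, into nt 841 to 850, ranked 40 from the highest. Leaving out 1 library left 7 to 12 calls, with 7 without either cytosolic library, 12 without nuclear replicate 1 and 10 without nuclear replicate 2. Calls over all steps also became fewer, to 9.26% and 11.5% without cytosolic replicate 1 or 2 and to 32.2% and 30.4% without nuclear replicate 1 or 2.

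At the 5′ edge the change was abrupt. From nt 751 to 760 into nt 761 to 770, nuclear log2 relative depth moved by -0.82 and -0.86, cytosolic by -0.01 and -0.11. The difference of -0.78 (SE 0.04) had an adjusted p of 0.00312 in limma and was the second lowest of the 185 steps of 18S. The step before it, from nt 741 to 750 into nt 751 to 760, differed by -0.55 (SE 0.05, adjusted p = 0.00890 in limma). The next one upstream, into nt 741 to 750, differed by -0.19. That smallest named step lost its call without nuclear replicate 1 or 2 (adjusted p = 0.0615 and 0.0683 in limma).

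Resolved by nucleotide, the nuclear drop was concentrated at 2 adjacent positions. From nt 755 to 756, nuclear log2 depth changed by -0.37 and -0.42, cytosolic by -0.09 and -0.16. From nt 756 to 757 it changed by -0.52 and -0.55 against -0.15 and -0.21, and from nt 758 to 759 by -0.26 and -0.25 against -0.08 and -0.09. All 4 libraries thus lost depth at the same nucleotides, and the nuclear ones lost more. Nuclear depth went from 1.83 and 1.97 at nt 751 to 0.609 and 0.624 at nt 765, the minimum of the domain in both nuclear libraries. Cytosolic depth went from 1.57 and 1.81 to 1.31 and 1.32 between the same positions. A local recovery at nt 768 to 770 was shared by all 4 libraries. The largest cytosolic-over-nuclear ratio, 2.13, lay just before it, at nt 767.

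**Figure D4:**
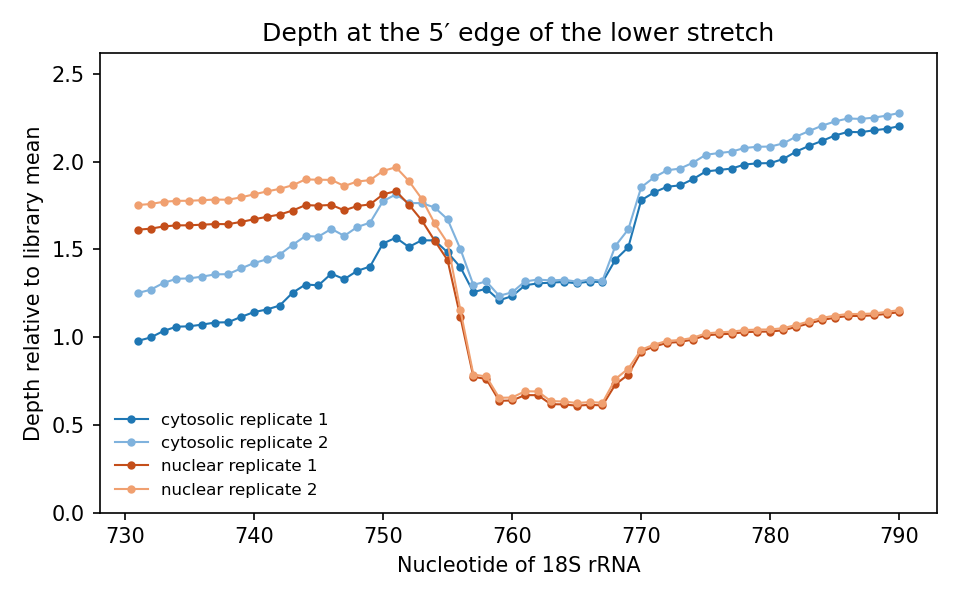
Read depth relative to the library mean at each nucleotide from nt 731 to 790, one line per library, with the axis starting at 0. All 4 libraries drop between nt 755 and 757, and the nuclear ones reach 0.609 and 0.624 at nt 765 while the cytosolic ones stand at 1.31 and 1.32.

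The 3′ edge was gradual. The 3 largest steps upward in the nucleus relative to the cytosol were consecutive, into nt 821 to 830 (0.21), nt 831 to 840 (0.26) and nt 841 to 850 (0.27), with adjusted p-values of 0.00530 to 0.0146 in limma. At the last of these, nuclear log2 depth moved by 0.30 and 0.25 and cytosolic by at most 0.01. All 3 lost their call without either cytosolic library (adjusted p-values of 0.0575 to 0.103 in limma). In relative depth, the nuclear libraries went from 1.26 and 1.25 at nt 811 to 820 to 2.27 and 2.01 at nt 841 to 850, while the cytosolic libraries stayed between 2.28 and 2.48. The last window of the run, nt 831 to 840, had 2.31 and 2.40 against 1.85 and 1.69, which lost its call when either cytosolic library was dropped and under scaling to 28S. The other 7 windows of the run were called in each of those settings.

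G+C content was set beside the differences along the domain, and its part in them was not tested. Of the 14 windows with at least 80% G+C, 11 were higher in the nucleus, 2 were lower and 1 did not pass. Over the whole domain, 75.5% of windows were higher and 15.1% lower. The lower run as a whole had 53.8% G+C, against 75.7% in the higher run before it and 52.7% in the higher run after it. Over the 53 windows, which share libraries and reads, the correlation between G+C content and the log2 difference was 0.05 (Pearson) and 0.02 (Spearman). It was 0.18 and 0.15 over the 25 windows of the ES6S side and -0.41 and -0.46 over the 28 of the core side, so the pooled value joins opposite signs. These are descriptions of 1 stretch of RNA.

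The core side was higher throughout on the scale of all rRNA reads. All 28 of its windows rose, against 62.4% of the windows of 18S and 37.1% of all windows tested. Their log2 differences were 0.41 to 0.61, beside a median of 0.43 over the windows of 18S. That is a narrow range next to the -1.01 to 0.86 of the ES6S side. No window of the core side fell, against 10.8% in 18S and 18.1% of all windows tested. The 12 rises of the ES6S side were 7 at its start and 5 at its end, next to helix 22.

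The conserved elements moved with the stretch around them. The loop of helix 23, which faces the large subunit, lies in windows nt 951 to 960 and nt 961 to 970. Their depths were 2.32 and 2.26, and 2.597 and 2.505, in the cytosol against 3.15 and 3.36, and 3.45 and 3.64, in the nucleus, with log2 differences of 0.50 (SE 0.06) and 0.47 (SE 0.05). The loop of helix 24, also at the subunit interface, lies in nt 1051 to 1060 and nt 1061 to 1070, where differences were 0.53 (SE 0.07) and 0.54 (SE 0.07). The latter window had 2.51 and 2.78 in cytosolic against 3.72 and 3.95 in nuclear libraries. None of these pairs overlapped between fractions, and adjusted p-values lay between 0.00381 and 0.00709 in limma.

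In both fractions the deepest part of the domain lay close to the anchor of helix 27, and largely ahead of it. The anchor, nt 1168 to 1174, lies in windows nt 1161 to 1170 and nt 1171 to 1180. The former had 4.14 and 4.49 in cytosolic against 6.12 and 6.75 in nuclear libraries, 1.49-fold higher (log2 difference 0.57, SE 0.08, adjusted p = 0.00661 in limma). The latter had 3.75 and 4.10 against 5.71 and 6.32 (log2 difference 0.61, SE 0.08). All 4 libraries peaked at the same nucleotide, nt 1163, ahead of the anchor. Relative depths there were 4.27 and 4.63 for cytosol against 6.29 and 6.94 for nucleus. Window nt 1151 to 1160 was among the 3 deepest of either fraction too, joined by nt 1131 to 1140 in the cytosol and by nt 1171 to 1180 in the nucleus. Depth declined from the first of the 2 anchor windows to the end of the domain. The last window, nt 1191 to 1200, had 2.69 and 2.92 against 4.02 and 4.49.

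These rises depended on the scale. When depth was scaled to the mean of 18S in place of all rRNA, the 28 core windows had differences of 0.04 to 0.24 and none passed, and in the domain 3 windows rose (nt 671 to 700) and 10 fell (nt 751 to 850). Over all 1316 windows, 26.4% rose and 27.2% fell under that scaling. Median-of-ratios scaling, with factors from the windows, gave 4 rises (nt 671 to 710) and the same span of 10 falls, against 28.3% and 24.6% of all windows. Of the 8 windows lower in the nucleus, 8 were called under both of these scalings, with differences of -1.36 to -0.78 within 18S. Under the scaling to 28S, 41 windows rose and 7 fell, against 41.3% and 9.73% of all windows.

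The profile as a whole was more uneven in the nucleus. The deepest position was 4.66 and 3.92 times as deep as the thinnest in the cytosolic libraries and 10.3 and 11.1 times in the nuclear ones. The coefficient of variation over the 530 positions was 34.2% and 33.7% against 45.2% and 48.8%. Neither measure overlapped between fractions (exact permutation p = 0.333 for each). Over the 53 windows, log2 depths correlated at 0.98 between the cytosolic libraries and 0.99 between the nuclear ones, and at 0.69 to 0.75 across fractions, with neighbouring windows sharing reads. The typical window differed by 0.07 on the log2 scale between the cytosolic libraries and by 0.09 between the nuclear ones, against 0.44 to 0.59 across fractions.

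Other rRNA sequences also differed between the fractions. In relative depth, mitochondrial 12S and 16S were 58.7-fold and 134.6-fold deeper in the nucleus. Of the precursor's spacers, ITS2 was 3.18-fold and ITS1 2.15-fold deeper there, and the 3′ETS 2.60-fold less deep. The 5′ETS, 1.16-fold deeper, was not called. Neither was 28S, which was 1.14-fold less deep in the nucleus and fills 5070 of the 15984 positions that set the scale. Of its 507 windows, 41.0% were lower and 6.31% higher, against 18.1% and 37.1% of all windows tested. Spacers were thinly covered, and the deepest, ITS2 in the nucleus, had a mean relative depth of only 0.00172. The 3′ETS had 5.53e-05 in the cytosol and 2.12e-05 in the nucleus. The part of these sequences in the results of the domain was not tested.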

How the data were processed

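The deposited values are signal: read depth (coverage) at each position of the rRNA reference sequences, whole numbers whose totals differ between libraries. The submitters' processing notes name cutadapt 1.5, Bowtie2 2.2.6 and SAMtools, while the sources used here give neither settings nor read filters nor how strand was used. Such a table does not separate copies of rDNA. Depth was divided by each library's mean over 15984 positions. Windows of 10 nt were tiled over all sequences with an edge at the first position of the domain. Windows that reached a mean depth of 10 in 2 or more libraries (1316 of 1598) were tested as nucleus minus cytosol with limma 3.58.1 in R 4.3.3, two-sided, on log2(relative depth + 0.01) and a mean-variance trend and Benjamini-Hochberg adjustment at 0.05. The pseudocount stood for 1890 to 2117 reads of depth. Steps were fitted the same way, with mean log2 depth as the trend covariate, and 12 parts of the sequences without a trend or pseudocount. Shares and ratios had two-sided exact permutation tests.

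Named windows were the 5 largest rises and falls past the threshold whose fractions did not overlap, the 3 highest and lowest in each fraction, and those of the conserved elements. Named steps were the 3 largest in each direction past the threshold. Members, elements and rules were chosen with earlier results of these data known. Alternatives were other scalings, pseudocounts, filters, window lengths and grids, window medians, no trend, the replicate block and leaving out each library. The small number of libraries, 2 per fraction, limits precision.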

Additional observations from a re-analysis of the deposited data

How the results depend on the processing

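The call of a rise for the domain as a whole was lost in most alternatives. Its log2 difference was 0.37 with the replicate number as a block (adjusted p = 0.0545 in limma), 0.33 to 0.41 when 1 library was left out, 0.020 with the median of ratios over the 12 parts, 0.15 with that over the windows (added after seeing the data) and -0.0057 when scaled to 18S, none past the threshold. It kept its call when scaled to 28S (0.56, adjusted p = 0.0183 in limma) and with medians over positions (0.40, adjusted p = 0.0281 in limma). With nt 761 to 840 left out, chosen after seeing the data, it was 0.49 (adjusted p = 0.0222 in limma). The difference in share of 18S was -0.57 to 0.33 percentage points without 1 library and 0.25 with medians over positions. Windows higher in the nucleus were 75.5% of the domain, but 7.55% with the median of ratios and 5.66% with the scaling to 18S. A scaling shifts all windows of a library by the same log2 amount, apart from the pseudocount. The domain's median difference was 0.47, 0.26 and 0.10 in these 3 scalings. Why the fractions differ in that amount was not tested. Windows lower in the nucleus were 15.1%, and 10% (1 of 10) with windows of 53 nt. The 20 differing steps dropped to 7 to 12 without 1 library. With the replicate block 41 windows were higher, 8 lower and 15 steps differed. Same-numbered libraries correlated in their deviations from the fraction means at 0.09 over all windows and 0.41 within the domain. With 2 pairs and no label that ties the numbers, they were not taken as pairs. The ES6S side over the core side stayed negative in the 7 alternatives run, from -0.57 to -0.10. The scalings named above, the pseudocount of 0.1 and the fit without a trend accounted for the 28 calls lost among named windows, and leaving out a library for the 8 lost among named steps.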

Other observations

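The order of the 2 libraries of a fraction was not the same along the domain. In the nucleus, replicate 1 was deeper than replicate 2 in 11 adjacent windows, nt 811 to 920, and shallower in the other 42. The difference reached -0.19 on the log2 scale (replicate 2 over replicate 1) at nt 851 to 860 and 0.16 at nt 1191 to 1200. In the cytosol, replicate 1 was deeper in 6 adjacent windows, nt 951 to 1010, and shallower in 47. These windows were chosen after their values were seen.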
